A study of Mus musculus with 23 samples.

Results

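Oxidative phosphorylation (OXPHOS) runs on 5 protein complexes of the inner mitochondrial membrane, and the genes described here carry the symbols of their subunits. Members were the protein-coding mouse genes whose symbols begin with Ndufa, Ndufb, Ndufc, Ndufs or Ndufv (assembly factors, Ndufaf, left out), Cox4 to Cox8, Uqcr or Atp5, the 4 succinate dehydrogenase genes Sdha, Sdhb, Sdhc and Sdhd, and the mitochondrial genes of the mt-Nd, mt-Co, mt-Cytb and mt-Atp families. The annotation held 99 such genes, and 98 were listed in the files, 85 of them nuclear and 13 mitochondrial, among 43068 genes in the crush experiment and 22880 in the knockout experiment. By symbol, the nuclear members comprised 38 genes of complex I, 4 of complex II, 8 of complex III, 18 of complex IV and 17 of complex V. Placement used the symbol alone, so a gene can be counted under a complex that its protein is not part of.

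Complex I oxidises NADH and complex II oxidises succinate, complex III passes the electrons to cytochrome c, complex IV hands them to oxygen, and complex V uses the resulting proton gradient to make ATP. Subunits come from both genomes in every complex except complex II, which is wholly nuclear and is also an enzyme of the tricarboxylic acid (TCA) cycle. In peripheral nerve, both axons and the Schwann cells (SCs) that wrap them depend on mitochondria, but the RNA of a nerve comes mainly from cells whose bodies lie in it, such as SCs, fibroblasts, vascular cells and macrophages.

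RNA of mouse sciatic nerve (SN) on the C57bl6 background was sequenced in 7 groups. In the crush experiment, SNs of wild-type males, 2 months old at surgery, were taken 3 days post crush (3 dpc, 4 libraries), with the contralateral SNs (4 libraries) and SNs of uncrushed surgery controls (3 libraries). In the knockout experiment, Dicer iKO mice were P0-CreERT2 -/+ Dicer1 flox/flox and Dgcr8 iKO mice were P0-CreERT2 -/+ Dgcr8 flox/flox, and their controls were P0-CreERT2 -/- with the same homozygous floxed allele (3 libraries in each of the 4 groups). All 4 groups were sampled 3 months post tamoxifen (3 mpT), which had been given at 8 to 10 weeks of age. The mutant mice had been chosen by nerve morphology, as the study states. The Cre is driven by a promoter of myelinating SCs, so that other cells of the nerve keep both genes. Dicer cleaves microRNA precursors in the cytoplasm, and Dgcr8 is the partner of Drosha in the nuclear step before it.

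Libraries held 6617716 to 12806066 counts in the crush experiment and 5594859 to 10143244 in the knockout experiment. Counts over the whole Dicer1 gene were 88.0, 88.4 and 91.0 CPM (counts scaled to the size of each library) in Dicer controls and 81.0, 82.8 and 82.4 in Dicer iKO (log2 fold change -0.11 ± 0.08 SE, adjusted p = 0.357). Dgcr8 counts were 38.2, 34.8 and 41.9 CPM in Dgcr8 controls and 39.3, 53.7 and 41.7 in Dgcr8 iKO (log2 fold change 0.22 ± 0.15 SE, adjusted p = 0.233). Whole-gene counts of a nerve include exons and cells outside the deletion, so they did not check the genotype labels. In the crushed SNs the 6 markers of myelinating SCs summed to 1048 to 1702 CPM against 39919 to 53287 in contralateral SNs, and the 8 macrophage markers to 619 to 1561 against 78.1 to 139. In Dgcr8 iKO the same sums were 13258 to 26546 against 40934 to 43806 and 2283 to 5570 against 234 to 278, and in Dicer iKO 20697 to 25672 against 26323 to 44538 and 3514 to 6456 against 248 to 856. The 4 fibroblast markers summed to 8679 to 11210 CPM in Dgcr8 iKO against 4100 to 5180 in controls, the 4 endothelial markers to 139 to 189 against 216 to 251, and mitochondrial rRNA took 2.09 to 2.92% of the counts against 3.25 to 8.29%. In Dicer iKO these were 12164 to 13125 against 3798 to 11328, 139 to 148 against 208 to 228, and 1.90 to 3.45% against 3.41 to 4.70%. The 12 skeletal muscle markers summed to 3.38 to 5.41 CPM in Dgcr8 iKO against 11.0 to 16.2. In Dicer iKO they summed to 5.17 to 7.13 against 6.95 to 28.6. The 9 adipocyte markers summed to 14.9 to 88.6 CPM against 0.536 to 4.94 for Dgcr8 and 17.6 to 24.4 against 2.58 to 103 for Dicer. These are bulk samples, in which fewer cells of a type and less RNA per cell cannot be told apart, and the part of cell composition in the results on OXPHOS genes was not tested.

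The data on promoters are given first. Nuclear OXPHOS genes lie apart in the genome, and their promoters are known for sites of NRF1, of ETS factors such as GABPA, and of YY1. Promoter windows of RefSeq (GRCm38.p6, 250 bases before to 50 after the gene start) were available for 67 of the 85 nuclear members, and were searched on both strands for GCGCANG (NRF1), CCGGAAG (ETS) and AAGATGG (YY1), short forms of the known motifs. The NRF1 letters were found in 31 members (46.3%) and in 24.3% of the promoters of 16522 protein-coding genes, the ETS letters in 23.9% and 13.4%, and the YY1 letters in 14.9% and 7.26%. The following 30-base windows, all upstream of the RefSeq gene start, show the NRF1 letters in capitals in members that moved in opposite directions below. In the annotation that gave the members, the Ndufa5 and Atp5g2 windows lie inside the gene. Sdha and Sdhd encode subunits of the same complex, Cox6a1 and Ndufa5 were lower after injury and Atp5g2 was higher.
Sdha, chr13:74350320-74350349, minus strand: gcgtttacaggGCGCAGGcgcaccaccact
Sdhd, chr9:50603910-50603939, minus strand: ttcgctggggtGCGCACGcgcggtggcagc
Cox6a1, chr5:115349102-115349131, minus strand: acaggaacgggGCGCATGcgcgctctcgct
Ndufa5, chr6:24527698-24527727, minus strand: ttgtgtgagctGCGCAGGcgcaaatctacc
Atp5g2, chr15:102671071-102671100, minus strand: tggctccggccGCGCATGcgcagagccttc

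The NRF1 letters were present in 14 of the 25 members with a window that were upregulated in crushed against contralateral SNs (56.0%), in 6 of the 15 downregulated (40.0%) and in 16 of the 31 downregulated in Dgcr8 iKO (51.6%). The Sdha window above is 1 of 3 matches in that promoter, and the Sdhd promoter also held the ETS letters. A match describes the letters only and is not a measured binding site.

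The first question was how much of the transcriptome these genes took up. In every library the 13 mitochondrial mRNAs outweighed the 85 nuclear genes, by 5.70 to 7.06 counts per nuclear count in the crush experiment and by 2.28 to 3.47 in the knockout experiment. The mitochondrial mRNAs made up 2.56 to 2.77% of all counts in crushed SNs, 2.03 to 2.19% in contralateral SNs, and 2.61, 2.17 and 1.73% in the 3 uncrushed SNs. Crushed SNs therefore lay above contralateral SNs without overlap, and uncrushed replicate 1 lay among the crushed SNs. The nuclear members took 0.613 to 0.633% of the counts on nuclear protein-coding genes in crushed SNs, 0.497 to 0.530% in contralateral SNs, and 0.634, 0.470 and 0.439% in uncrushed SNs, where replicate 1 again stood apart. In the knockout experiment the nuclear share was 0.826, 0.811 and 0.694% in Dgcr8 controls and 0.663, 0.619 and 0.676% in Dgcr8 iKO, which did not overlap. It was 0.767, 0.707 and 0.615% in Dicer controls and 0.651, 0.626 and 0.639% in Dicer iKO, which did. The mitochondrial share overlapped in both knockout comparisons.

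**Figure D1:**
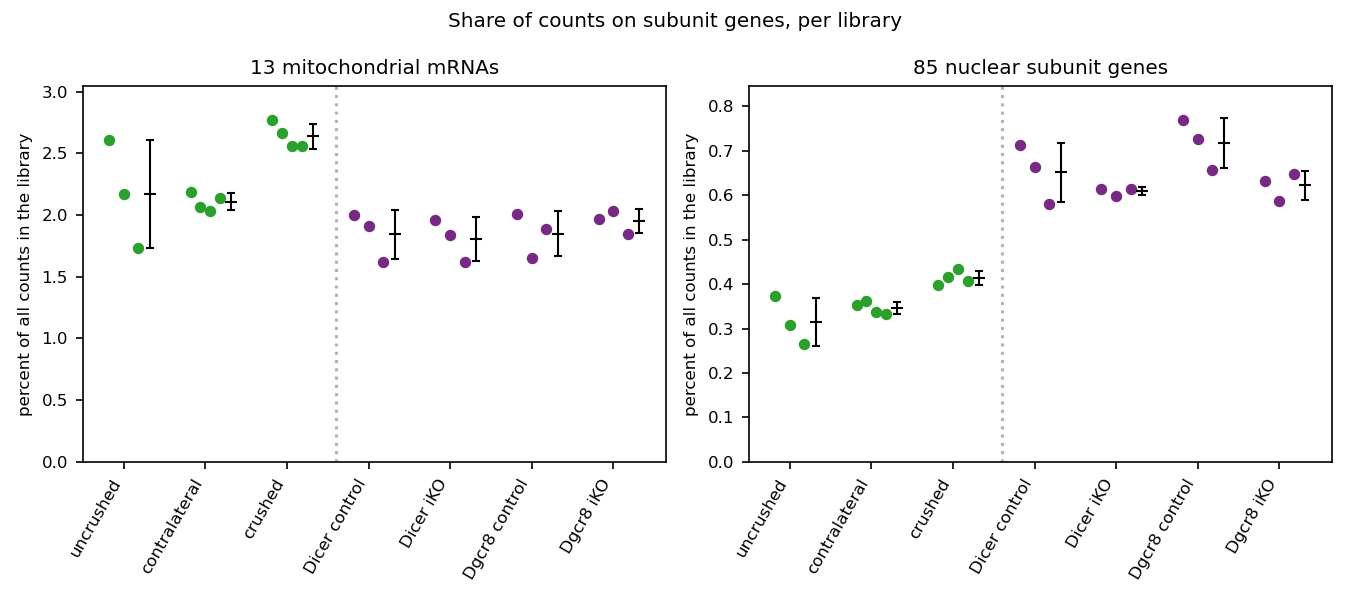
Percent of all counts in each library on the 13 mitochondrial mRNAs (left) and on the 85 nuclear OXPHOS genes (right). Each dot is a library, bars give mean ± SD, green marks the crush experiment and purple the knockout experiment, which used another library kit. On the left the crushed SNs (2.56 to 2.77%) sit above the contralateral SNs (2.03 to 2.19%), and in both panels uncrushed replicate 1 is the highest of its group.

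Per length, the most abundant nuclear member in contralateral SNs was Atp5b, the catalytic beta subunit of ATP synthase, at 1229 TPM (RSEM's length-scaled abundance), followed by Cox6c at 728 TPM. The mitochondrial mRNAs ranged there from 703 TPM for mt-Nd6 to 17068 TPM for mt-Atp6. The tissue-restricted isoforms were at the other end. Cox4i2, Cox6a2, Cox7b2, Cox8b and Cox8c had too few counts to be tested in any comparison, so that 80 nuclear and all 13 mitochondrial members were tested in each. Cox6a2 and Cox8b, the heart and skeletal muscle isoforms of their subunits, did not exceed 0.588 and 0.134 CPM in any library, and the 12 skeletal muscle markers summed to 2.91 to 28.6 CPM over all libraries.

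Crush injury was followed by changes in both directions among the nuclear members. Against uncrushed SNs, 28 of the 80 were upregulated and 6 downregulated at an adjusted p of 0.05, and among all genes tested 33.7% were upregulated and 33.3% downregulated. Against contralateral SNs, 32 were upregulated and 15 downregulated, with 33.5% and 32.9% among all genes. The 15 were 22 with library sizes from nuclear protein-coding counts, and 5 without the filter on low counts, namely Ndufa13, Ndufa5, Cox6a1, Cox7a1 and Cox8a. The calls of Sdha, Atp5g1, Atp5e and Cox7a2 described below were thus among those lost. Both comparisons use the same 4 crushed SNs. Among nuclear protein-coding genes alone, 5623 of 14356 were upregulated and 4227 downregulated against uncrushed SNs. Against contralateral SNs 5276 of 13922 were upregulated and 4429 downregulated. The CPM printed here are scaled over all libraries of an experiment and the fold changes within a comparison, so that ratios of the printed CPM lie above the fitted log2 fold changes by 0.13 against uncrushed and 0.14 against contralateral SNs (median over members). The median log2 fold change of the nuclear members was 0.15 against uncrushed and 0.09 against contralateral SNs, where the medians of all nuclear protein-coding genes were 0.12 and 0.03. At a mean transcript width (weighted by counts) of up to 700 nucleotides, 31 members had medians of 0.02 and 0.09. Other nuclear protein-coding genes of that width had 0.49 and 0.42. Above it, 49 members had 0.25 and 0.12, and the others 0.11 and 0.02. The part of transcript width was not tested. Few changes were large: 4 genes rose and 2 fell by at least 2-fold against uncrushed SNs (15.3% and 21.1% of all genes), and 1 rose and 2 fell against contralateral SNs (14.6% and 13.6%). Scaling to nuclear protein-coding counts shifted all fold changes against uncrushed SNs by -0.13 (log2, median) and gave 25 upregulated and 13 downregulated members. Without uncrushed replicate 1, 50 were upregulated and 3 downregulated.

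**Figure D2:**
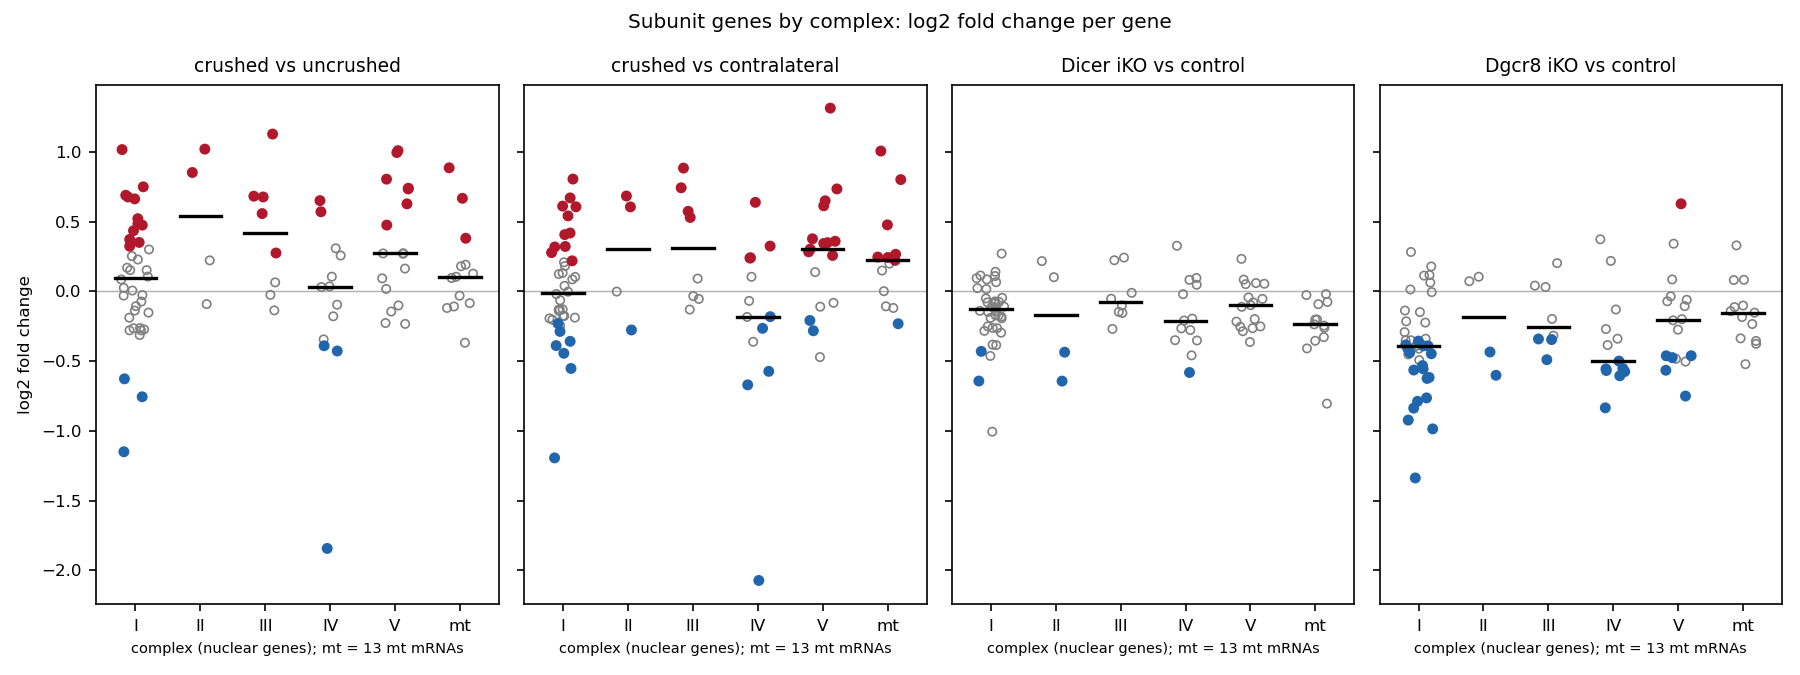
log2 fold change of each tested OXPHOS gene in 4 comparisons, with nuclear genes by complex (I to V) and the 13 mitochondrial mRNAs (mt) on the x axis. Each dot is a gene, filled red or blue where the adjusted p of edgeR was at most 0.05 and open otherwise, and black bars are medians. Genes of complexes III and V lie mostly above 0 after crush. In Dgcr8 iKO each of the complexes I to V holds blue dots beside open ones.

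Complex I had genes in both directions. Against contralateral SNs 11 of its 38 nuclear genes were upregulated and 7 downregulated, beside 33.5% and 32.9% of all genes. Ndufs1, a core subunit with iron-sulfur clusters, was at 31.2, 30.3, 30.3 and 32.2 CPM in contralateral, at most 30.8 in uncrushed and 52.9, 56.1, 57.1 and 42.0 in crushed SNs. The crushed SNs were all above both control groups (log2 fold change 0.61 ± 0.08 SE, adjusted p = 1.85e-05 against contralateral SNs and 0.75 against uncrushed SNs). Ndufa13, also known as GRIM-19, went the other way, at 112, 124, 106 and 104 CPM in contralateral, 142, 94.9 and 91.3 in uncrushed and 50.9, 57.5, 55.4 and 51.2 in crushed SNs. All crushed SNs were below all controls (log2 fold change -1.19 ± 0.08 SE, adjusted p = 8.66e-09, and -1.15 against uncrushed SNs). Ndufa5, an accessory subunit of the matrix arm, was at 41.1, 43.6, 40.2 and 40.8 CPM in crushed and 58.4, 60.8, 52.2 and 49.5 in contralateral SNs, again without overlap (log2 fold change -0.55 ± 0.09 SE, adjusted p = 5.81e-05). Ndufv1, which binds NADH, rose against uncrushed (log2 fold change 0.35 ± 0.12 SE, adjusted p = 0.018) but had a log2 fold change of -0.02 against contralateral SNs (adjusted p = 0.866). The call against uncrushed SNs was lost in 4 alternative settings, nuclear protein-coding scaling (0.22, adjusted p = 0.0807) and the fit without uncrushed replicate 3 (0.25, adjusted p = 0.0561) among them.

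The genes of complex II moved apart from each other. Sdha encodes the flavoprotein that oxidises succinate, Sdhb the iron-sulfur subunit, and Sdhc and Sdhd the membrane anchors. Sdhb was at 29.2, 23.6 and 18.9 CPM in uncrushed, 26.2, 29.8, 30.8 and 26.4 in contralateral and 45.9, 50.8, 49.0 and 44.1 in crushed SNs. Sdhd was at 12.8, 13.2 and 11.0, 15.1, 16.6, 17.2 and 12.7 and 25.6, 30.4, 26.8 and 26.4 CPM in the same order. For both genes the crushed SNs were above all controls (Sdhb 0.85 and 0.61, Sdhd 1.02 and 0.68 on the log2 scale, adjusted p = 8.23e-05, 1.26e-05, 5.99e-06 and 4.98e-05). Sdha was at 101, 122 and 113 CPM in uncrushed, 124, 134, 126 and 117 in contralateral and 106, 123, 124 and 104 in crushed SNs. It fell against contralateral SNs, with overlapping libraries (log2 fold change -0.28 ± 0.08 SE, adjusted p = 0.00538), and its log2 fold change against uncrushed SNs was -0.09 (adjusted p = 0.429). Sdhc was not called in either comparison (0.22 and -0.00). Of the TPM of the 4 genes, Sdha took 61.6 to 69.0% in contralateral, 53.4 to 57.2% in crushed and 58.0 to 70.3% in uncrushed SNs.

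**Figure D3:**
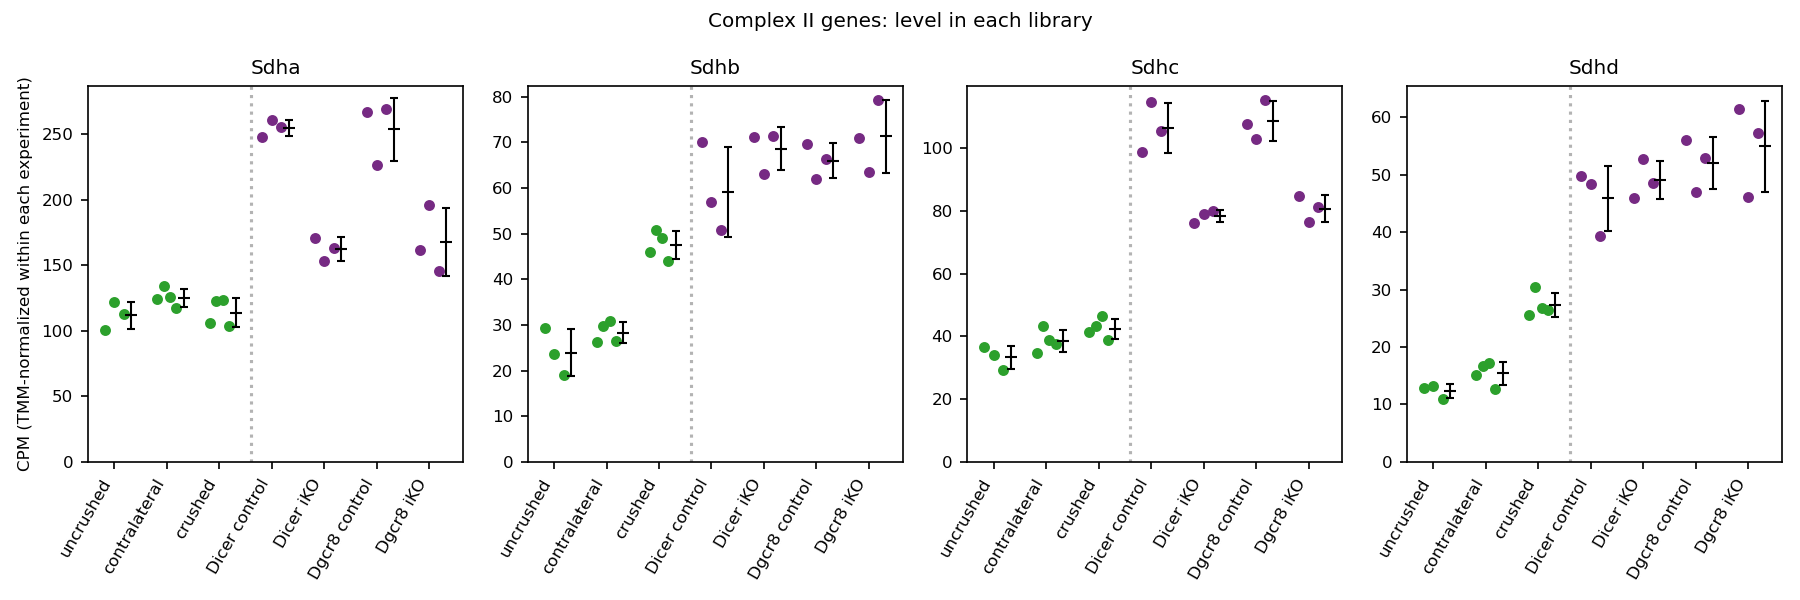
CPM of the 4 complex II genes in every library, by group. Dots are libraries, bars mean ± SD, and the dotted line separates the crush experiment (green) from the knockout experiment (purple), which are not to be compared with each other. Sdhb and Sdhd stand higher in crushed SNs than in both control groups, while Sdha and Sdhc stand lower in both iKO groups than in their controls.

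No nuclear gene of complex III fell. Against contralateral SNs 4 of 8 rose, beside 33.5% of all genes, and against uncrushed SNs 5 of 8, beside 33.7%. Uqcrc1, a core subunit on the matrix side, was at 85.7, 82.4, 81.0 and 67.9 CPM in crushed against 37.6, 39.9, 42.6 and 35.9 in contralateral and 33.6, 34.5 and 31.9 in uncrushed SNs. The groups did not overlap (log2 fold change 0.88 ± 0.08 SE, adjusted p = 2.79e-07, and 1.13 against uncrushed SNs). Uqcrfs1, the Rieske iron-sulfur protein, had log2 fold changes of 0.53 and 0.68, and Uqcrb of 0.74 and 0.68, all upregulated.

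In complex IV 5 of the 13 genes tested were downregulated and 4 upregulated against contralateral SNs, beside 32.9% and 33.5% of all genes. Cox7a1, an isoform best known from heart and skeletal muscle, was at 3.58, 4.2, 4.11 and 3.55 CPM in contralateral and 1.05, 1.42, 0.799 and 0.703 in crushed SNs, which did not overlap (log2 fold change -2.07 ± 0.24 SE, adjusted p = 2.61e-06). Its partner Cox7a2, the common isoform, moved by -0.18 (adjusted p = 0.0428), a call lost in 10 alternative settings, RLE scaling among them (-0.17, adjusted p = 0.0622). Muscle markers were lower in crushed SNs as well, summing to at most 3.80 CPM against 4.11 to 6.21 in contralateral SNs, and their part in the Cox7a1 result was not tested. Cox6a1 was at 99.0, 111, 98.8 and 96.1 CPM in contralateral and 71.0, 66.6, 72.8 and 69.4 in crushed SNs, without overlap (log2 fold change -0.67 ± 0.08 SE, adjusted p = 3.48e-06). Against uncrushed SNs its call rested on replicate 1 of that group: the log2 fold change went from -0.39 (adjusted p = 0.0432) to -0.08 (adjusted p = 0.515) without it. Cox7b rose, from 40.8, 40.7, 41.8 and 41.2 CPM in contralateral to 69.2, 75.1, 69.0 and 68.2 in crushed SNs (log2 fold change 0.64 ± 0.07 SE, adjusted p = 1.26e-06).

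In complex V, 11 of 17 genes rose and 2 fell against contralateral SNs, and 7 rose and none fell against uncrushed SNs. Of all genes tested, 33.5% rose and 32.9% fell against contralateral SNs, and 33.7% and 33.3% against uncrushed SNs. Of the catalytic head and its central stalk, Atp5a1 (alpha) rose by 0.74, Atp5b (beta) by 0.38 and Atp5c1 (gamma) by 0.61 (log2, adjusted p = 1.24e-06, 0.000804 and 2.17e-05). Atp5d, the delta subunit of the stalk, was at -0.08 (adjusted p = 0.429), and Atp5e, its small epsilon subunit, fell by 0.21 (adjusted p = 0.0338). The call of Atp5e was lost in 9 alternative settings. Atp5g1, Atp5g2 and Atp5g3 encode the same mature c subunit of the membrane ring with different import sequences. Atp5g2 was at 8.91, 11.8, 9.98 and 11.3 CPM in contralateral, 16.2, 12.5 and 10.2 in uncrushed and 33.4, 31.2, 27.1 and 23.7 in crushed SNs. The crushed SNs were above all controls (log2 fold change 1.31 ± 0.12 SE, adjusted p = 3e-07, and 1.01 against uncrushed SNs), while Atp5g1 fell against contralateral SNs (log2 fold change -0.28 ± 0.08 SE, adjusted p = 0.00759). Atp5g2 thereby took 25.7 to 30.4% of the TPM of the 3 genes in crushed SNs, against 13.8 to 16.8% in contralateral and at most 23.2% in uncrushed SNs.

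Of the 13 mitochondrial mRNAs, which are cut from long shared transcripts, 3 were upregulated against uncrushed SNs, beside 33.7% of all genes. Against contralateral SNs 7 were upregulated and 1 downregulated, beside 33.5% and 32.9% of all genes. The 7 were 4 without contralateral replicate 3, crushed replicate 1 or crushed replicate 2. The mRNAs did not move together. mt-Nd1, a membrane subunit of complex I, was at 1531, 1399 and 1213 CPM in uncrushed, 1365, 1236, 1161 and 1253 in contralateral and 2879, 3100, 2578 and 2534 in crushed SNs. Its crushed SNs lay far above all controls (log2 fold change 1.01 ± 0.09 SE, adjusted p = 2.56e-07, and 0.89 against uncrushed SNs). mt-Atp8 was at 434, 380.5 and 341, 379, 323, 332 and 353 and 628, 755, 609 and 665 CPM in the same order (log2 fold change 0.80 ± 0.09 SE, adjusted p = 1.64e-06), and mt-Nd5 rose by 0.48 (adjusted p = 0.000126). Neither gene overlapped between crushed SNs and controls. mt-Nd2, the next gene after mt-Nd1, was at 1263, 1179, 1195 and 1261 CPM in contralateral and 1332, 1282, 1146 and 1196 in crushed SNs, which overlapped (log2 fold change -0.12 ± 0.08 SE, adjusted p = 0.223). mt-Atp6, whose reading frame overlaps that of mt-Atp8 so that their reads are hard to assign, had a log2 fold change of 0.20 (adjusted p = 0.111). mt-Nd6, the mRNA of the opposite strand, rose by 0.27, and mt-Co3 fell by 0.23 (adjusted p = 0.0236), a call lost in 5 alternative settings.

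**Figure D4:**
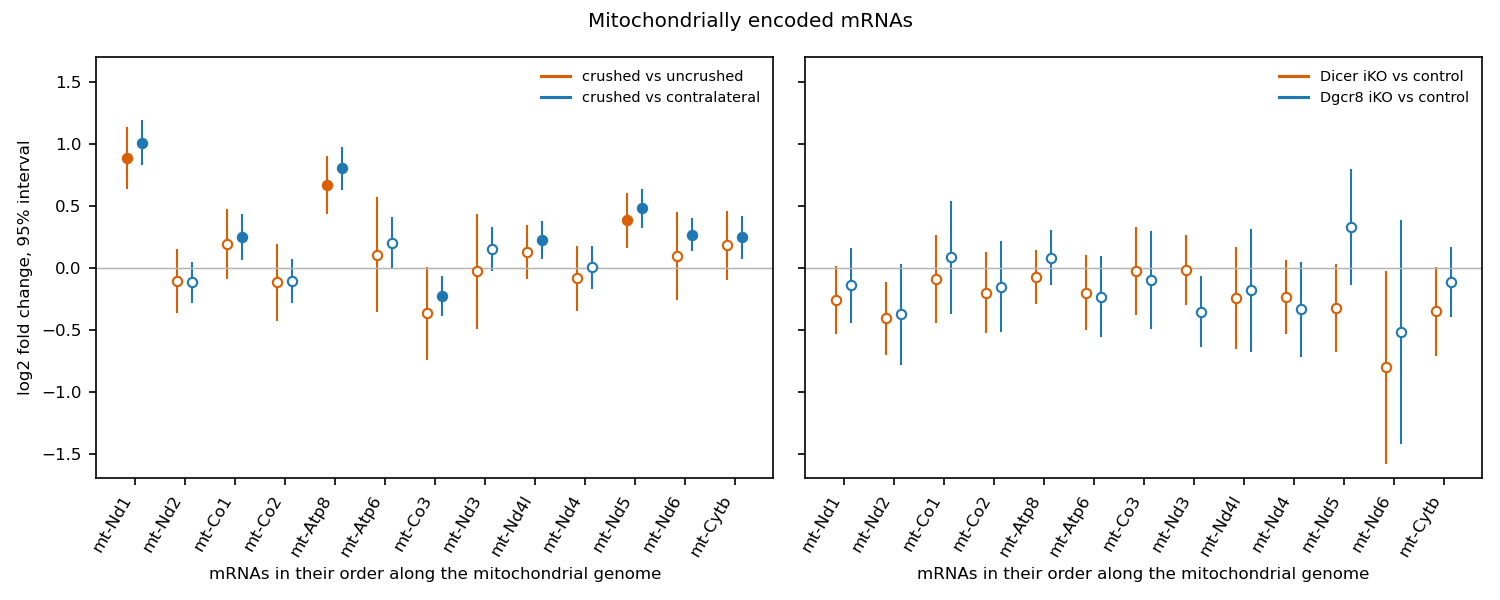
log2 fold change of the 13 mitochondrial mRNAs, in their order along the mitochondrial genome, after crush (left) and in the iKO groups (right). Bars are 95% intervals per gene, not adjusted, and filled dots passed an adjusted p of 0.05. After crush mt-Nd1, mt-Atp8 and mt-Nd5 are filled in both comparisons, and no dot is filled on the right.

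The comparison of contralateral with uncrushed SNs asked whether injury on one side changed the other nerve. No member was called by edgeR (0% of 17722 genes were), and 4 of the 93 tested members (4.3%) had an unadjusted p under 0.05, against 17.9% of all genes. DESeq2 called 195 genes and edgeR's exact test 670, with 0 members in both. The largest differences between the groups were -0.67 for Ndufa4l2 and -0.40 for Atp5g2 (log2, adjusted p = 0.267 and 0.232). All 13 mitochondrial mRNAs had negative log2 fold changes in this comparison (median -0.19). Their share of counts ranged from 1.73 to 2.61% in uncrushed SNs, and the part of this spread in the low number of calls was not tested.

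Many nuclear members were lower in Dgcr8 iKO SNs. In Dgcr8 iKO 35 of 80 were downregulated and 1 upregulated, and among all genes tested 20.6% were downregulated and 23.9% upregulated. The median log2 fold change was -0.37, against -0.01 for all nuclear protein-coding genes. At a mean transcript width of up to 700 nucleotides it was -0.40 for 30 members and -0.18 for 256 other nuclear protein-coding genes. Above that width it was -0.35 for 50 members and -0.01 for 12821 others. The part of transcript width in this result was not tested. Downregulated were 18 of 38 genes in complex I, 2 of 4 in complex II, 3 of 8 in complex III, 7 of 13 in complex IV and 5 of 17 in complex V. Ndufa5 alone fell by at least 2-fold and no member rose by as much, where 6.99% and 13.4% of all genes did. The count of downregulated members was 23 without Dgcr8 control replicate 1 or without Dgcr8 iKO replicate 2.

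In complex I, Ndufa5 was at 62.7, 78.0 and 54.7 CPM in controls and 24.1, 26.1 and 27.3 in Dgcr8 iKO, without overlap (log2 fold change -1.34 ± 0.15 SE, adjusted p = 4.78e-05). Ndufb9, an accessory subunit of the membrane arm, was at 129.5, 144 and 111 CPM in controls and 66.5, 57.9 and 70.7 in Dgcr8 iKO (log2 fold change -0.99 ± 0.14 SE, adjusted p = 0.000202). Ndufa13 was at 261, 281 and 218 and 135, 134 and 134 CPM (log2 fold change -0.92 ± 0.14 SE, adjusted p = 0.00028). In these genes too the groups did not overlap. Other downregulated accessory subunits were Ndufa12 (-0.84), Ndufs6 (-0.79) and Ndufb3 (-0.76). Of the 7 nuclear core subunits 3 fell, beside 18 of all 38 nuclear genes of the complex, namely Ndufv1 (-0.41), Ndufv2 (-0.45) and Ndufs3 (-0.38).

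In both mutants Sdha and Sdhc of complex II fell, and Sdhb and Sdhd did not pass the test. Sdha was at 267, 226 and 269 CPM in Dgcr8 controls and 162, 196 and 146 in Dgcr8 iKO (log2 fold change -0.60 ± 0.15 SE, adjusted p = 0.00681). In the Dicer groups it was at 248, 261 and 256 CPM in controls and 171, 153 and 163 in iKO (log2 fold change -0.64 ± 0.09 SE, adjusted p = 0.00499). Sdha did not overlap between iKO and control libraries in either line. Sdhc was at 108, 103 and 116 against 84.7, 76.4 and 81.2 CPM for Dgcr8 (log2 fold change -0.43 ± 0.11 SE, adjusted p = 0.00937) and at 98.8, 115 and 106 against 76.1, 78.9 and 80.1 CPM for Dicer (log2 fold change -0.44 ± 0.09 SE, adjusted p = 0.0168), also without overlap, although the Dicer call was lost in 4 alternative settings. Sdhb and Sdhd were not called in either line, with log2 fold changes of 0.11 (95% interval -0.14 to 0.35) and 0.07 (-0.20 to 0.35) in Dgcr8 iKO and 0.22 (-0.05 to 0.49) and 0.10 (-0.13 to 0.34) in Dicer iKO. The share of Sdha in the TPM of the 4 genes was 34.7 to 35.9% in Dgcr8 controls and 25.1 to 32.8% in Dgcr8 iKO, and 32.9 to 38.5% in Dicer controls and 25.9 to 26.1% in Dicer iKO.

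In complex III, Uqcr10 (-0.49), Uqcrh (-0.35) and Uqcrc2 (-0.34) fell in Dgcr8 iKO, each losing its call in 5 to 9 alternative settings. Processed pseudogenes carry the names of Uqcrh and of other members such as Atp5k, so their reads can be shared with copies. The copies of these genes were listed in the crush but not in the knockout experiment, where the counting of such reads is uncertain. In complex IV, Cox6a1 was at 168, 183 and 133 CPM in controls and 94.6, 89.7 and 88.4 in Dgcr8 iKO, without overlap (log2 fold change -0.83 ± 0.14 SE, adjusted p = 0.000669). The other 6 were Cox7a2l, Cox7c, Cox7a2, Cox5b, Cox4i1 and Cox8a, at log2 fold changes of -0.60 to -0.50. Cox4i1, the common isoform of the subunit that binds ATP, was at 280.3, 326 and 260.1 CPM in controls and 199, 173 and 221 in Dgcr8 iKO (adjusted p = 0.0108).

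In complex V, Atp5k, which helps ATP synthase to form dimers, was at 70.7, 74.3 and 58.4 CPM in controls and 40.9, 39.3 and 41.0 in Dgcr8 iKO (log2 fold change -0.75 ± 0.13 SE, adjusted p = 0.000716). Atp5j2, Atp5g1, Atp5j and Atp5h also fell, by log2 fold changes of -0.57 to -0.46. Atp5a1, Atp5b, Atp5c1 and Atp5d of the catalytic head and stalk were not called, at 0.09, -0.21, -0.07 and -0.04. The only upregulated member was Atp5e, at 53.5, 57.0 and 44.7 CPM in controls and 82.5, 59.3 and 99.0 in Dgcr8 iKO (log2 fold change 0.63 ± 0.18 SE, adjusted p = 0.0155). Its adjusted p was 0.0709 without Dgcr8 control replicate 3 and 0.0503 without Dgcr8 iKO replicate 3.

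In Dicer iKO 5 of 80 nuclear members were downregulated and none upregulated, beside 8.88% and 12.3% of all genes tested. The 5 were Ndufb9, Ndufv1, Sdha, Sdhc and Cox6a1, and all 5 were downregulated in Dgcr8 iKO as well. Ndufb9 was at 127, 112 and 98.4 CPM in Dicer controls and 79.2, 72.1 and 63.9 in Dicer iKO (log2 fold change -0.64 ± 0.13 SE, adjusted p = 0.0151), and Cox6a1 at 165, 137 and 143 and 114, 87.8 and 93.6 CPM (log2 fold change -0.58 ± 0.13 SE, adjusted p = 0.0222). Both were lower in all iKO libraries than in all controls. The median over the 80 members was -0.11. The count was 11 without Dicer control replicate 3, and 1 without Dicer control replicate 2, Dicer iKO replicate 2 or Dicer iKO replicate 3.

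The mitochondrial mRNAs were not called in either line (0 of 13 each). Their median log2 fold change was -0.24 in Dicer iKO and -0.15 in Dgcr8 iKO. mt-Nd1 was at 765, 716 and 811 CPM in Dgcr8 controls and 768, 634 and 683 in Dgcr8 iKO, with a 95% interval of -0.44 to 0.16 for the log2 fold change, and for mt-Atp8 the interval was -0.14 to 0.31. At an unadjusted p under 0.05 there were 16 of 93 members of both genomes in Dicer iKO (17.2%, against 36.3% of all genes) and 46 of 93 in Dgcr8 iKO (49.5%, against 52.3%), and DESeq2 called 1 mitochondrial mRNA in Dgcr8 iKO.

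Whether the 2 mutants differed was tested directly as an interaction. No member passed (2 of 13552 genes did, 0.0148%), with 11 of 93 members (11.8%) and 13.7% of all genes at an unadjusted p under 0.05, and of the 11 members 10 were lower in Dgcr8 iKO relative to Dicer iKO. DESeq2 called 240 genes, 2 of them members. The number of downregulated members in Dgcr8 iKO against Dicer iKO is therefore not in itself a tested difference. For Sdha the difference was 0.05 (unadjusted 95% interval -0.29 to 0.38). For Ndufa5 it was -0.95 (unadjusted interval -1.39 to -0.52), which did not pass the adjusted test.

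The crush and Dgcr8 comparisons share no libraries, and were set side by side. Of the 15 nuclear members downregulated in crushed against contralateral SNs, 12 were downregulated in Dgcr8 iKO, 1 (Atp5e) was upregulated and 2 were not called. Of all 4150 genes downregulated after crush and tested in both, 51.3% were downregulated in Dgcr8 iKO, 4.41% upregulated and 44.3% not called. Of the 32 upregulated in crushed SNs, 6 were downregulated in Dgcr8 iKO and 26 were not called, where of all 5156 such genes 2.66% were downregulated, 47.2% upregulated and 50.1% not called. These differences from all genes were not tested. Ndufa13, Ndufa5, Cox6a1 and Cox8a were lower in both settings. The Dgcr8 iKO call of Cox8a was lost in 4 alternative settings. Against uncrushed SNs its log2 fold change went from -0.43 (adjusted p = 0.0326) to -0.11 (adjusted p = 0.397) without uncrushed replicate 1. Uqcrc1, Atp5g2, Sdhb and Sdhd, which rose after crush, had log2 fold changes of 0.20, 0.34, 0.11 and 0.07 in Dgcr8 iKO, none of them called. Across the 80 genes Spearman's rho between the 2 sets of fold changes was 0.61, and it was 0.71 across all 12914 genes tested in both. Genes are not independent replicates, and both settings share higher macrophage and lower myelinating SC markers.

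**Figure D5:**
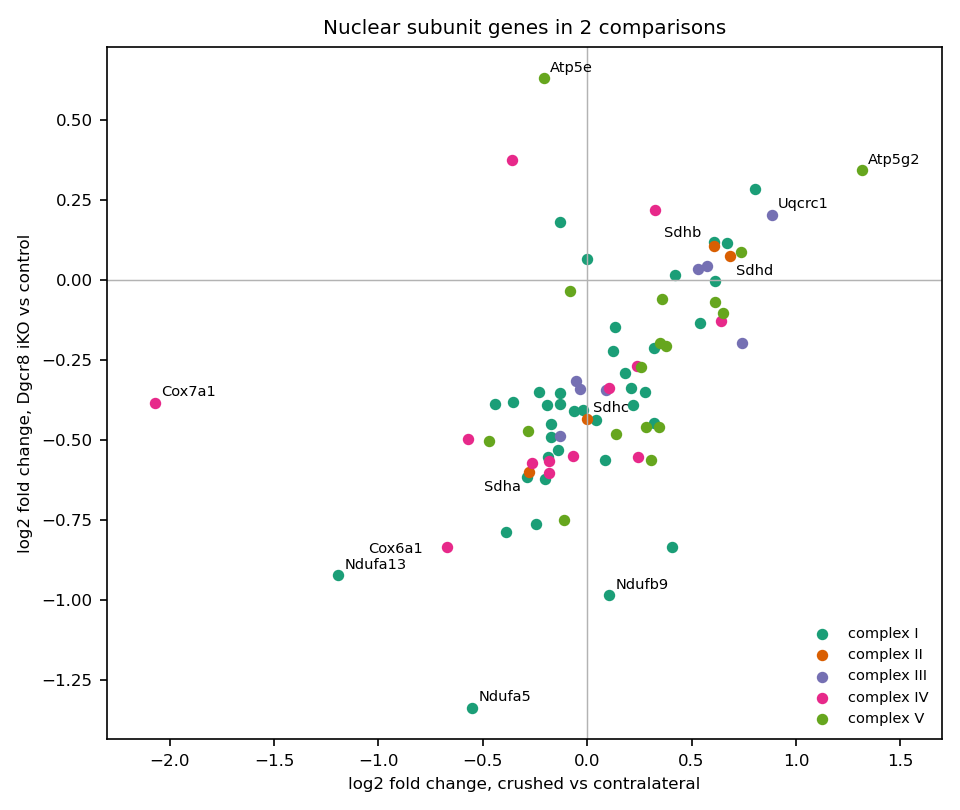
log2 fold change of the 80 tested nuclear OXPHOS genes in crushed against contralateral SNs (x axis) and in Dgcr8 iKO against controls (y axis). Each dot is a gene, coloured by complex, and the 2 comparisons share no library. Ndufa13, Ndufa5 and Cox6a1 lie low on both axes, and most genes on the right lie near or below 0 on the y axis.

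Genes that work with the complexes were read from other lists. Of 17 tested genes of the TCA cycle, 14 rose and none fell against contralateral SNs, among them Dlst (0.91), Mdh2 (0.62) and Fh1 (0.68). Of 77 genes of the mitochondrial ribosome, which translates the 13 mRNAs, 44 rose and 5 fell. Mrps22 (1.02), Mrpl12 (1.03) and Mrpl16 (1.14) had the lowest adjusted p. Among all genes 33.5% rose and 32.9% fell. Of 49 OXPHOS assembly factors 14 rose and 5 fell, with Ttc19 (0.83) higher and Surf1, which assembles complex IV, lower (-0.81). In Dgcr8 iKO the same lists had 2 up and 2 down, 1 up and 13 down, and 0 up and 8 down, where 23.9% of all genes were up and 20.6% down, with Surf1 again lower (-0.89). The medians were 0.50, 0.39 and 0.23 after crush and -0.10, -0.11 and -0.08 in Dgcr8 iKO.

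Carriers that work with the complexes did not all rise after crush. Slc25a5, the ADP/ATP carrier found in many dividing cells, rose against contralateral SNs (log2 fold change 1.72 ± 0.09 SE, adjusted p = 4.22e-10) and in both mutants (1.01 in Dgcr8 iKO and 0.61 in Dicer iKO). Slc25a4, the carrier of muscle and other resting tissues, had a log2 fold change of 0.01 after crush. Cycs, which encodes cytochrome c, rose (log2 fold change 0.87 ± 0.07 SE, adjusted p = 9.13e-08). Markers of dividing cells moved with Slc25a5, all 4 being higher in crushed SNs and in both mutants, and their part in this result was not tested. Among 16 regulators of mitochondrial biogenesis, 8 rose and 3 fell against contralateral SNs, beside 33.5% and 32.9% of all genes. The coactivator Ppargc1a rose (log2 fold change 0.92 ± 0.17 SE, adjusted p = 0.000224) while its relative Ppargc1b fell (log2 fold change -1.10 ± 0.20 SE, adjusted p = 0.000225). Gabpa, an ETS factor, rose by 0.80, and Nrf1 had 0.13 (not called) against contralateral and 0.54 (called) against uncrushed SNs.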

How the data were processed

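The deposited files hold, per transcript, expected counts and TPM that the authors made with RSEM after trimming with Trimmomatic and alignment with STAR to Ensembl GRCm38, as the methods state. Per the labels, the crush experiment used a SMARTer pico kit and the knockout experiment a TruSeq kit after Ribo-Zero depletion, while the methods name only TruSeq. The experiments were therefore never tested against each other. Transcripts were summed per gene and counts rounded. Fold changes, standard errors (from the F statistic) and p-values come from edgeR 4.0.16 (R 4.3.3) quasi-likelihood tests on the groups compared, after filterByExpr (minimum count 10) and TMM scaling, with Benjamini-Hochberg adjustment over all genes tested. A gene was called at an adjusted p of 0.05. The 95% intervals are not adjusted over genes and use normal quantiles of the SE, which makes them too narrow for so few libraries. CPM are TMM-scaled over all libraries of an experiment, and TPM were rescaled to the same total over protein-coding genes. DESeq2 1.42.0 served as an alternative.

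The symbol rule, the gene lists and the tests were chosen with earlier results of these data known. Named by rule were the mitochondrial mRNAs, the Sdh genes, isoform pairs, members past 2-fold, and the highest and lowest member per complex and comparison; Ndufb9, Ndufs1, Ndufa12, Ndufs3, Ndufs6, Ndufb3, Ndufv2, Uqcrfs1, Uqcrb, Uqcrh, Cox7c, Cox5b, Atp5a1, Atp5b, Atp5c1, Atp5d, Ndufb8, Ndufa1, Atp5h, Atp5j and Atp5j2 were added after their values were seen. Libraries of a group were taken as separate mice, as the methods state. By the methods, the contralateral SNs were the uninjured nerves of the crushed mice, and the labels do not say which libraries share a mouse. The main test of crushed against contralateral SNs treated them as independent. Counting of reads shared with pseudogene copies or overlapping genes follows RSEM and is uncertain. In the crush libraries 87.4 to 89.0% of the nuclear members' counts lay on protein-coding transcripts, and in the knockout libraries 96.7 to 97.8%. The promoter motifs were searched as short forms, which replaced longer forms of the NRF1 and YY1 motifs after the matches of those had been seen. Protein sequences and the values of 1 gene that the rule names are not reported here.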

Additional observations from a re-analysis of the deposited data

Results flagged for a closer look

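In groups of 4, each member that passed the filter was checked for a library apart from the rest of its group by Dixon's criterion, as were the mitochondrial and nuclear shares of counts, over 190 combinations in all, and 8 stood out. Chance alone would give about 1 in 20. Uqcrq was at 37.5 CPM in contralateral replicate 2, where the nearest library had 32.5, and Ndufb8 at 40.1 CPM beside 34.5 in the same library. Atp5h was low in contralateral replicate 3, at 83.3 CPM beside 89.8, and Ndufa1 in contralateral replicate 4, at 11.9 CPM beside 13.3. mt-Nd3 was at 236 CPM in contralateral replicate 4, with the nearest at 215. Crushed replicate 2 was high for Cox7b, at 75.1 CPM beside 69.2, and for Cox8a, at 65.7 CPM beside 62.2. Uqcr10 was at 23.1 CPM in crushed replicate 4, below the nearest at 26.6.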

How the results depend on the processing

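Of 608 recomputed counts of called members, 548 stayed within 1.5 times the count reported, and no direction of a called gene reversed under the alternatives run. Of 2007 recomputed fold changes of called genes, 210 lost their call. The moved counts follow, and the cause was not tested. For crushed against uncrushed SNs, the downregulated nuclear members (6) were 13 with nuclear protein-coding library size, 3 with no filter on low counts and 15 with all groups in 1 fit. Those at least 2-fold higher (4) were 1, 7, 1, 0 and 1 with nuclear scaling, no filter, at least 10 counts in every sample, all groups, and protein-coding transcripts only (chosen after seeing the data). Those at least 2-fold lower (2) were 1 with no filter or with at least 10 counts. Mitochondrial members upregulated (3) were 6 with no filter, of which 1 by 2-fold, and 1 was downregulated with nuclear scaling, at least 10 counts or all groups. Leaving out 1 library gave 24 to 50 and 3 to 7 nuclear members up and down, 1 to 6 and 1 to 2 by 2-fold, and 3 to 7 and 0 to 1 mitochondrial. For crushed against contralateral SNs, no filter gave 5 nuclear members down, 2 up by 2-fold and 0 mitochondrial down, at least 10 counts gave 1 down by 2-fold and 4 mitochondrial up, and all groups gave 0 mitochondrial down. The 2-fold call of mt-Nd1 went to 0 with nuclear scaling, at least 10 counts and protein-coding transcripts. Leaving out 1 library gave 4 to 7 mitochondrial up, 0 to 1 by 2-fold and 0 to 1 down. For Dicer iKO, leaving out 1 library gave 1 to 11 nuclear members down, 0 to 2 mitochondrial and 0 to 1 by 2-fold. For Dgcr8 iKO, DESeq2 gave 1 mitochondrial down and all groups 2 nuclear up, and leaving out 1 library gave 23 to 43 nuclear down, 1 to 3 by 2-fold, 0 to 2 up and 0 to 2 mitochondrial down.

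Samples with the same number did not deviate together, with correlations from -0.205 to 0.292 between crushed and contralateral SNs, and means of -0.12 for Dicer and -0.06 for Dgcr8. No source used here says that a number marks a mouse. This holds also for crushed and contralateral SNs, which by the methods come from the same mice, so these numbers were not taken as pairs. With the replicate block, the downregulated members in Dicer iKO were 3 instead of 5, and no other count moved by over 1.5 times. The block ended the calls of Cox7a2 and Atp5e against contralateral SNs (adjusted p = 0.0516 and 0.0531). The calls of crushed against uncrushed SNs depend most on uncrushed replicate 1, and 3 or 4 libraries a group limit the precision.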
